A study of Mus musculus with 34 samples.

Results

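Distal intergenic H3K4me3 regions are stretches of mouse chromatin with high signal for trimethylated lysine 4 of histone H3 away from annotated gene starts and outside protein-coding genes. They were chosen by their signal in the same 4 libraries that are described here. The 4 tracks were averaged with equal weight in bins of 100 bp, bins at 10 or more times the genome-wide mean were kept and joined over gaps of up to 500 bp, and stretches of 300 bp or more were retained. Of the 14071 regions obtained, 934 lay over 5000 bp from every transcript 5′ end of GENCODE M21 (mm10) and overlapped no protein-coding gene body. Another 724 distal regions lay inside protein-coding genes, 9839 regions spanned a transcript 5′ end, and 2574 lay within 5000 bp of one. Their level is a description, because the level chose them. No control was subtracted, so signal that does not come from the mark was not set apart.

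The study asked how chromatin differs in normal-appearing intestine of mice at risk of tumours. H3K4me3 was profiled with CUT&RUN, in which an antibody brings micrococcal nuclease to the mark and the released fragments are sequenced, in villus cells scraped from the small intestine of 2 wild-type mice (C57BL/6J) and 2 ApcMin/+ mice on the same background. ApcMin/+ mice carry 1 mutant Apc allele in every cell and develop multiple intestinal adenomas. The mice were 5 weeks old by the labels and 6 weeks old by the methods, and they received no treatment.

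H3K4me3 is deposited mainly at transcription start sites, where CpG-rich DNA recruits the enzymes that write it. Enhancers usually carry the monomethylated form, and H3K4me3 away from annotated starts is known from starts that annotation lacks, from genes transcribed by RNA polymerase III such as tRNA genes, and from very active enhancers. In villus cells the enhancers are bound by factors such as HNF4, CDX2, GATA4 and AP-1.

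Where 4 values are listed below, they belong to wild-type replicate 1, wild-type replicate 2, ApcMin/+ replicate 1 and ApcMin/+ replicate 2, in this order. The depth written in the tracks was 1430000, 4790000, 3700000 and 5470000 tags. ApcMin/+ replicate 1 stood apart, with a mean signal of 19.5 over regions at transcript 5′ ends against 4.34 to 6.89 in the other 3 libraries, and with the lowest background, 0.189 against 0.268 to 0.314. Wild-type replicate 1 was the shallowest library, and the smallest step of its signal was 2.24, against 0.59 to 0.79 in the others. The summed promoter signal of 13 enterocyte genes was 43.9 to 235 across the libraries. It was 4.27 to 13.6 for 7 secretory genes, 5.86 to 10.2 for 9 immune genes and 3.65 to 9.08 for 9 mesenchymal genes. For 6 further genes (Alb, Myh6, Gfap, Ins2, Neurod1 and Cd4) it was 1.72 to 3.87. The Paneth cell genes Lyz1 and Defa24, the myeloid genes Csf1r and Itgam, and the stromal genes Col1a2, Col3a1, Pdgfra and Cdh5 averaged under 0.5. The other secretory, immune and mesenchymal genes averaged at least 0.5. Among them were Atoh1 (1.42, 1.29, 4.67 and 1.94), Cd8a (0.90, 0.62, 2.11 and 1.23) and Vim (1.33, 0.80, 3.10 and 1.84). The part of these cells in the distal signal was not tested.

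The DNA beneath the regions fell into different kinds, and sequences of mm10, plus strand, are shown for the members that carry these differences. The first group contrasts CpG content in the 300 bp at the highest bin, with every CpG in capitals. The region 6397 bp from Anp32e was high mainly in ApcMin/+ replicate 1, and the window on chromosome 10, which held 0 CpGs, belongs to a region with 388 fragments in ApcMin/+ replicate 1.
chr3:95951001-95951300: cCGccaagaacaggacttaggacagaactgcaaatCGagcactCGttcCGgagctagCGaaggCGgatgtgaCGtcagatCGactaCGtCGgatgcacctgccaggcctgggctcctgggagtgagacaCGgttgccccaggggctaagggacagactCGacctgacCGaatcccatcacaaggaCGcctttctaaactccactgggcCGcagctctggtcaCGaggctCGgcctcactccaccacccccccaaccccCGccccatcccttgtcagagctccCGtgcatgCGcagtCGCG
chr10:95109501-95109800: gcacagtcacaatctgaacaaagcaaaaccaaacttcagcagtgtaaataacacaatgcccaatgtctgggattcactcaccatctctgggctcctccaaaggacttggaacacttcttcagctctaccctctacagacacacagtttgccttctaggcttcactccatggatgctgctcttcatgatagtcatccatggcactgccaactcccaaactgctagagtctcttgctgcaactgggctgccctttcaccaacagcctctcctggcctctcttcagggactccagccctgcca

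The second group shows motif matches, in capitals, in distal regions whose nearest protein-coding genes were Gata5 (an AP-1 and a CDX match), Krt20 (a GC box and a GATA match) and Prom1 (an HNF4 match).
chr2:180343301-180343600: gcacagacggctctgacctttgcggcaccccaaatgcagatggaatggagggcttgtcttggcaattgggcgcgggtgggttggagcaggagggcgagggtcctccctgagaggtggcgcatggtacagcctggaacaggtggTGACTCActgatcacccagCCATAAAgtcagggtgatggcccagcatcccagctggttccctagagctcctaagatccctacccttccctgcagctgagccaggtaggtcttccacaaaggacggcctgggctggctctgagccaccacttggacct
chr11:99461501-99461800: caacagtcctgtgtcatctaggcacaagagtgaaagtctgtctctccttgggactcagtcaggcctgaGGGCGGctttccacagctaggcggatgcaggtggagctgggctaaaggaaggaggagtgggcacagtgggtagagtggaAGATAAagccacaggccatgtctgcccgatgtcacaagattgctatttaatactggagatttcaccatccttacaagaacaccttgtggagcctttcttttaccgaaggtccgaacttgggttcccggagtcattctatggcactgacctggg
chr5:44113101-44113400: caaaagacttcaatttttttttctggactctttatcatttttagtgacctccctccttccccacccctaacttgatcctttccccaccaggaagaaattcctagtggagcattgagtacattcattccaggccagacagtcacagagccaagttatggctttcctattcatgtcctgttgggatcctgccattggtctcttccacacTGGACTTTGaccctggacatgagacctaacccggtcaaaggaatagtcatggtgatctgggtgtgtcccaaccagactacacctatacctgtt

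The third group shows tRNA genes, in capitals, that lay whole within the 300 bp around the highest bin of a member. They are the RefSeq genes n-TGtcc7, at chr3:96501009-96501080 on the minus strand and just past the end of its region, and n-TIaat17, at chr17:83861944-83862036 on the plus strand.
chr3:96500801-96501100: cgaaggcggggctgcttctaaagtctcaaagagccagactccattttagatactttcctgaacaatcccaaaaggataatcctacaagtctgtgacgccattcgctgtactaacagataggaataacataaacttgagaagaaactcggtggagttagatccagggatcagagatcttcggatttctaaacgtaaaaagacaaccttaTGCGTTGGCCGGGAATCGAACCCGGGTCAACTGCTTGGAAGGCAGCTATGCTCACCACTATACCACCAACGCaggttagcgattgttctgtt
chr17:83861801-83862100: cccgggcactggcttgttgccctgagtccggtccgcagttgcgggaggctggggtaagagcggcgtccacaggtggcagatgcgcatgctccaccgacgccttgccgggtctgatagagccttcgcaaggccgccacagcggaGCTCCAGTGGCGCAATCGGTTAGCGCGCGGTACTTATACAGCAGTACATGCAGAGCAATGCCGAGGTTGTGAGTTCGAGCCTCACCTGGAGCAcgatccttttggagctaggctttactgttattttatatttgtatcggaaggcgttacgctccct

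The distal intergenic regions were short and moderately marked. Their median length was 500 bp (quartiles 400 and 800 bp, range 300 to 5600 bp), the same median as for distal regions inside genes and against 1400 bp at transcript 5′ ends. They covered 648700 bp in all. The median signal over the members was 4.59, 3.11, 9.12 and 4.12 in the 4 libraries. ApcMin/+ replicate 1 was therefore the highest library, and ApcMin/+ replicate 2 lay between both wild-type libraries. The members held 0.333%, 0.221%, 0.825% and 0.291% of each library's signal. On average the signal within 100 bp of the midpoint was 6.35 to 12.7 times the signal 2000 to 3000 bp away, against 8.16 to 19.2 times at transcript 5′ ends.

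**Figure D1:**
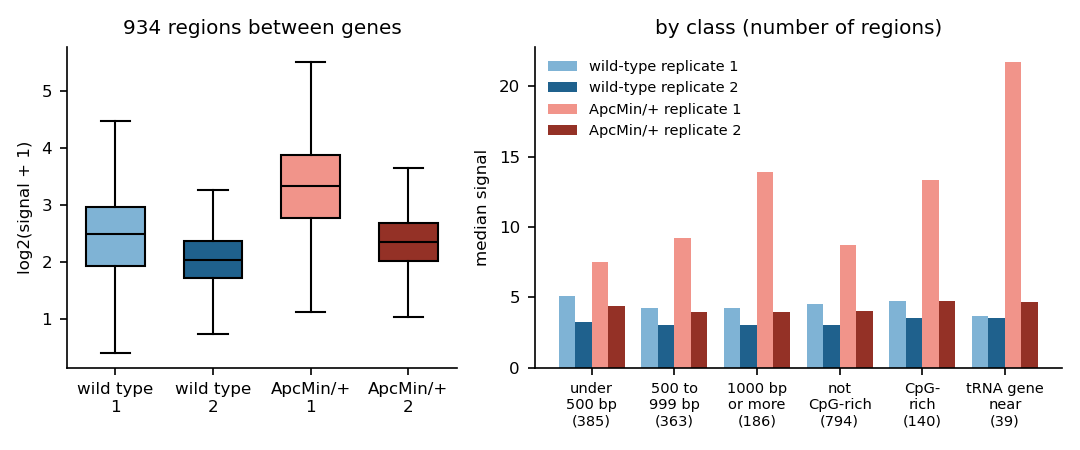
Left, log2(signal + 1) of the 934 distal intergenic regions in each library, with boxes for the quartiles, lines for the medians and whiskers to the farthest value within 1.5 times the box. Right, median signal (linear axis) of each library in members grouped by length, CpG content and nearness to a tRNA gene, where ApcMin/+ replicate 1 goes from 7.51 in members under 500 bp to 21.7 beside tRNA genes while the other 3 libraries stay between 3.0 and 5.08.

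**Figure D2:**
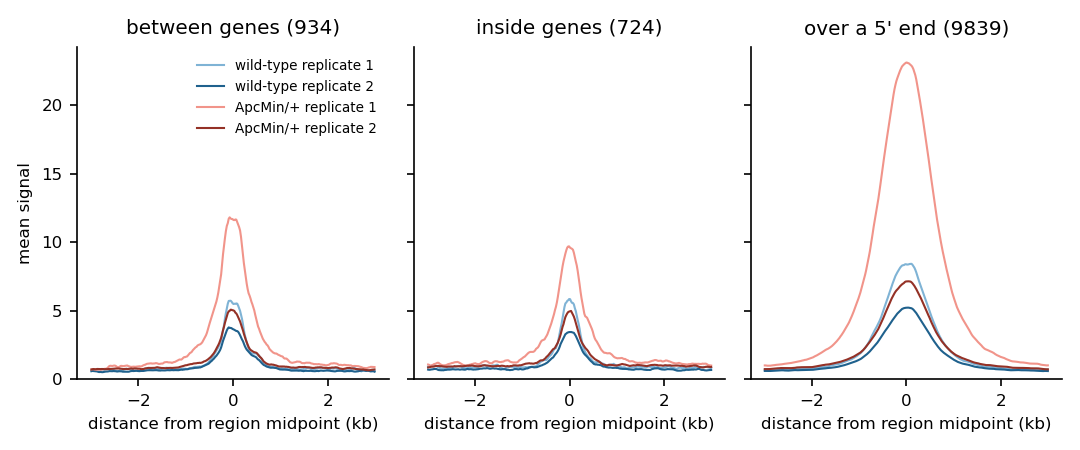
Mean signal around the midpoint of distal regions between genes, distal regions inside genes and regions over a transcript 5′ end, in kb, with 1 line per library. Within 100 bp of the midpoint the regions between genes reached 5.59, 3.65, 11.7 and 4.94 (wild-type replicates first), and the regions over 5′ ends reached 8.37, 5.20, 23.03 and 7.09.

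The members were supported unevenly by the libraries. A total of 190 members (20.3%) reached 10 times the genome-wide mean of each of the 4 libraries taken alone, against 15.7% of distal regions inside genes and 57.1% of regions at transcript 5′ ends. In contrast, 184 members did so in 1 library only, and 6 in none. The number of fragments behind a value was small, as the median member held 3.61 fragments in wild-type replicate 1, 7.92 in wild-type replicate 2, 17.1 in ApcMin/+ replicate 1 and 11.9 in ApcMin/+ replicate 2. In wild-type replicate 1, 411 members (44.0%) had under 3 fragments and 25 had none, so single values of that library carry a large counting error.

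Which library was highest differed with the kind of region. ApcMin/+ replicate 1 was the highest library at 680 members (72.8%), at 62.3% of distal regions inside genes and at 96.6% of regions at transcript 5′ ends. Wild-type replicate 1 was the highest at 180 members (19.3%), where its median signal was 8.11 against 3.06, 4.19 and 3.88 in the other libraries. These 180 members had a median length of 400 bp and a median of 4.77 fragments in wild-type replicate 1. An average with linear weights keeps a region that is high in any 1 library, and a region of few fragments reaches the threshold most easily in the shallowest library, whose part in the choice of these members was not tested.

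Long members were those with most signal in ApcMin/+ replicate 1. The averaged signal of the 4 libraries set the length, and this library contributed most to it, so that the relation is a description. In the 186 members of 1000 bp or longer the median signal was 4.27, 3.0, 13.9 and 3.93, and ApcMin/+ replicate 1 was the highest library at 93.5% of them. In the 385 members under 500 bp the medians were 5.08, 3.25, 7.51 and 4.39, and that share was 56.9%. By distance from the nearest transcript 5′ end the medians differed less, with values in ApcMin/+ replicate 1 of 9.84 in the 334 members at 5000 to 10000 bp, 8.64 in the 553 between 10 and 50 kb and 8.15 in the 47 farther away.

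Next, the sequence of the members was compared with that of the other regions, a measure that the rule did not use. The median GC content of the 300 bp at the highest bin was 53.0% in the members and 52.8% in distal regions inside genes, against 61.0% at transcript 5′ ends. The observed number of CpGs relative to that expected from the C and G content had a median of 0.320, 0.250 and 0.698, respectively. CpG-rich windows, with a GC content of at least 50% and a CpG ratio of at least 0.6, made up 140 members (15.0%), 4.97% of distal regions inside genes and 63.0% of regions at transcript 5′ ends. The members thus stood between the other kinds, nearer to distal regions inside genes.

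The 140 CpG-rich members carried more signal than the others. Their medians were 4.76, 3.54, 13.3 and 4.71, against 4.50, 3.05, 8.71 and 3.99 in the 794 other members. Within 100 bp of the midpoint their mean signal was 10.4 to 24.7 times that of the flanks, against 5.74 to 11.1 times in the others. Among the 248 distal intergenic regions called anew at 20 times the genome-wide mean, which overlapped 233 members, 29.0% were CpG-rich. The rule used the signal, so that these levels are given without a test.

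Repeats made up little of the members. The median share of soft-masked bases was 7.68%, against 7.0% in distal regions inside genes, 6.73% at transcript 5′ ends and 36.4% of the 21 chromosomes. Over 50% of the bases were masked in 16 members, the highest of which lay 24597 bp from Ly6c2. The authors kept only reads with a mapping quality of at least 10, which leaves out reads from repeats that occur in many identical copies, and its part in the low share was not tested.

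Motif matches were counted in the same 300 bp windows on both strands. The AP-1 motif (TGANTCA, which reads alike on both strands) occurred in 14.8% of the members, 20% of distal regions inside genes, 4.33% of regions at transcript 5′ ends and 6.89% of all regions. The GATA motif (AGATAA) occurred in 15.7%, 17.7%, 5.40% and 7.90%, respectively, and the CDX motif (TTTATNG) in 12.2%, 11.6%, 4.95% and 6.32%. The HNF4 motif (CAAAGTCCA) occurred in 22 members (2.36%), against 2.07%, 0.315% and 0.732%, and the TCF/LEF motif (ATCAAAG, which shares the letters CAAAG with it) in 4.71%, 4.56%, 1.91% and 2.62%. The shares of these 5 motifs were lowest at transcript 5′ ends, where the windows were richer in G and C, and the part of base composition was not tested. Between both kinds of distal region the AP-1 share was 5.25 percentage points and the GATA share 1.94 points higher inside genes, the other 3 were within 1 point, and these differences were not tested.

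Several motifs known from promoters were most common at transcript 5′ ends. The GC box (GGGCGG) occurred in 20.4% of the members, 14.5% of distal regions inside genes, 47.1% of regions at transcript 5′ ends and 40.0% of all regions. The ETS motif (CCGGAAGT) occurred in 1.82%, 1.80%, 4.86% and 3.84%, and the YY1 motif (AAGATGGC) in 1.28%, 1.10%, 3.91% and 3.26%. The NFY motif (CCAATC) differed little, with 11.7%, 9.94%, 12.6% and 11.8%, as did the CTCF motif (AGGGGGCGC or AGGTGGCAG), with 2.14%, 1.52%, 1.87% and 1.87%. In the CpG-rich members the GC box occurred in 55.7% and the AP-1 motif in 7.14%, against 14.2% and 16.1% in the others. In the same order of kinds, the NRF1 motif (GCGCATGC) occurred in 1.82%, 0.414%, 2.92% and 2.32%, and the CRE motif (TGACGTCA) in 0.321%, 0.552%, 1.45% and 1.17%. The core promoter box bound by TBP (TATAAA) was least common at 5′ ends, with 7.49%, 8.01%, 4.05% and 5.23%. A match describes letters and is not a bound site.

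**Figure D3:**
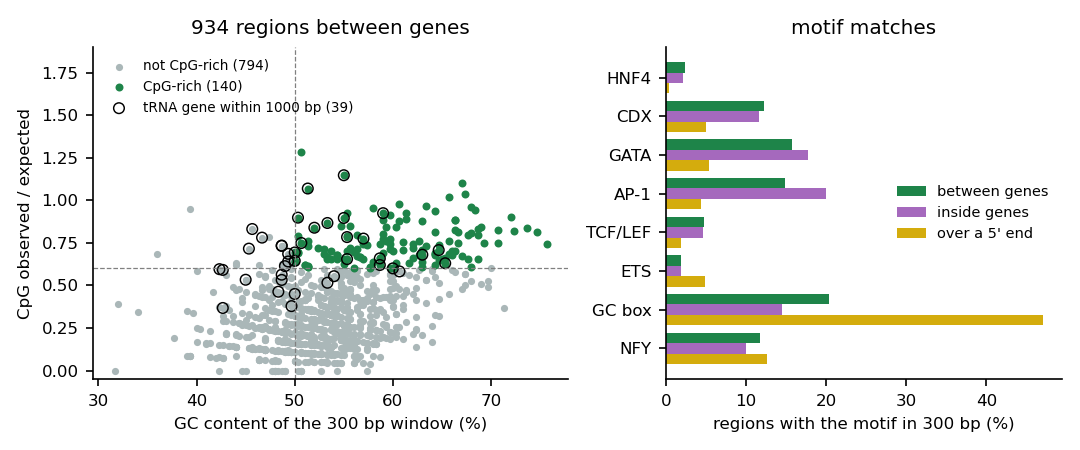
Left, GC content (%) and CpG observed over expected of the 300 bp at the highest bin of each of the 934 distal intergenic regions, with the 140 CpG-rich members in green, the 39 members within 1000 bp of a tRNA gene circled and dashed lines at the limits of 50% and 0.6. Right, percent of regions with a motif match, where HNF4, CDX, GATA, AP-1 and TCF/LEF matches were least common over 5′ ends, AP-1 was found in 14.8% of the regions between genes and 20% of those inside genes, and the GC box was most common over 5′ ends.

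The members lay mostly at moderate distances from genes. The nearest transcript 5′ end of any kind was 5000 to 10000 bp away for 334 members (35.8%), farther but within 50 kb for 553 (59.2%), and over 50 kb for 47. It belonged to a protein-coding gene for 466 members, a lincRNA for 168 and a processed pseudogene for 126. The median distance to a protein-coding 5′ end was 22123 bp. A noncoding gene body of GENCODE overlapped 88 members. RefSeq, a second annotation of the same build, placed a 5′ end within 1000 bp of 117 members (12.5%), whose median length was 700 bp and whose median signal in ApcMin/+ replicate 1 was 11.8; 700 members remained when RefSeq 5′ ends were barred as well. In all, 208 members (22.3%) had another member within 10000 bp.

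Regions just inside and just outside the limits are given as a description. The nearest members were chr1:64742801-64743200 at 5050 bp from Fzd5, a Wnt receptor, with 5.21, 4.90, 12.1 and 5.41, chr4:3391901-3392400 at 5055 bp from Gm11784 (4.19, 4.60, 18.5 and 1.71) and chr1:178368601-178369600 at 5080 bp from Gm27458 (4.62, 3.25, 10.3 and 2.79). The nearest outside were chr11:118982501-118983200 at 4988 bp from Enpp7, an intestinal sphingomyelinase (4.80, 5.34, 6.95 and 4.47), chr3:28737001-28737300 at 4940 bp (7.16, 3.82, 2.70 and 5.40) and chr16:10452301-10452900 at 4939 bp (3.56, 1.48, 4.29 and 3.96). Just under the signal limit, 293 distal intergenic regions were found at 9 but not at 10 times the genome-wide mean, with medians of 4.05, 2.43, 4.14 and 3.22; some of them hold higher bins over less than 300 bp. The 20 members whose highest bin was under 11 times the mean had medians of 3.45, 2.19, 2.70 and 2.28.

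The 39 members within 1000 bp of a RefSeq tRNA gene are described together. tRNA genes are transcribed by RNA polymerase III and were not among the excluded transcripts, so that regions on them count as distal. Of these members 28 overlapped a tRNA gene, 9 lay between 21 and 24 Mb of chromosome 13 and 4 at 171 Mb of chromosome 1. Their median length was 1100 bp, and 19 of them were CpG-rich (48.7%, against 13.5% of the other members). Their median signal was 3.67 (range 0 to 12.2) in wild-type replicate 1, 3.53 (0.693 to 8.27) in wild-type replicate 2, 21.7 (5.20 to 37.0) in ApcMin/+ replicate 1 and 4.63 (1.18 to 9.21) in ApcMin/+ replicate 2. ApcMin/+ replicate 1 was the highest library at all 39, with a median of 3.94 times the highest other library, against 1.76 times over all members and 2.64 times at transcript 5′ ends. It was also the highest at 93.5% of all members of 1000 bp or longer. A RefSeq 5′ end of another gene lay within 1000 bp of 10 of the 39 (25.6%, against 12.0% of the other members). Only 21 of the 39 lay over 5000 bp from any such end. The parts of length, CpG content and these ends in the signal were not tested. Of the 403 tRNA genes of RefSeq on these chromosomes, 117 (29.0%) overlapped a region of any kind and 42 a distal intergenic one.

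In the 4 members beside tRNA genes that were named after their values were seen, ApcMin/+ replicate 1 was the highest library and the order of the others differed. Region chr2:122375501-122376700, over the histidine tRNA gene n-THgtg4 and 6339 bp from Shf, had 9.88, 7.42, 37.0 and 8.47. A RefSeq 5′ end of Gm39918 lay 668 bp from this region. Region chr3:96499601-96501000, over n-THgtg8 and with n-TGtcc7 just past its end, had 5.43, 5.97, 36.3 and 4.95. Region chr12:70968101-70969200, over n-TKctt17, also lay 83 bp from a RefSeq 5′ end of Psma3, a proteasome subunit, and had 5.71, 8.27, 32.6 and 5.59. Region chr1:74816801-74817500, 19 bp from n-TGgcc3 and 23438 bp from Wnt10a, had 4.95, 5.63, 33.1 and 9.21. Both ApcMin/+ libraries exceeded both wild-type libraries in the last of these 4 and in 21 of the 39 (53.8%, against 34.7% of all regions).

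Of the 8 members with the highest mean signal, 7 are described here, which need not include the highest. Region chr19:61199401-61200200, 15511 bp from Gm6020, had 42.4, 15.2, 50.9 and 22.2. There the first replicates were the higher ones and the genotypes overlapped. Region chr15:75085601-75087100, in the Ly6 locus of small surface proteins, had 44.2, 38.4, 15.8 and 40.6, so that ApcMin/+ replicate 1 was the lowest library. Region chr3:5860401-5860800 had 27.6, 19.0, 11.2 and 35.8 and region chr6:3201301-3201700 had 14.0, 15.6, 14.2 and 29.2, each highest in ApcMin/+ replicate 2.

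The other leading members followed ApcMin/+ replicate 1. Region chr3:95950601-95951500, near Anp32e, a chaperone of the histone variant H2A.Z, had 9.40, 7.51, 47.3 and 10.1. Region chr11:57962501-57963200, 45864 bp from Larp1, an RNA-binding regulator of ribosomal protein mRNAs, had 19.8, 8.17, 45.1 and 10.5. Region chr18:5989501-5990200, 44507 bp from Arhgap12, a GTPase-activating protein, had 23.3, 8.66, 31.9 and 10.8. Among these 7, the groups did not overlap near Anp32e only.

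The 4 longest members were highest in ApcMin/+ replicate 1. Region chr15:38468201-38473800 (5600 bp, 20586 bp from Azin1, an inhibitor of antizyme) had 3.34, 1.84, 14.3 and 3.78, and RefSeq places a 5′ end of Gm41308 within it. Region chr17:44134101-44139200 (5100 bp) had 8.59, 4.17, 18.3 and 7.19, and RefSeq places a 5′ end of Clic5, a protein of brush border microvilli, within it. Region chr6:39254301-39258200 (3900 bp, 47512 bp from Kdm7a, a histone demethylase) had 1.94, 1.30, 10.0 and 2.78. Region chr11:94158501-94162400 (3900 bp) lay 49054 bp from Tob1, an antiproliferative factor, and had 2.94, 2.28, 11.1 and 2.80. A RefSeq 5′ end of Gm35338 lay 162 bp from this region.

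The 3 members farthest from any transcript 5′ end did not stand out in level. Region chr18:11351901-11352600, at 272315 bp, had 3.19, 3.96, 12.2 and 4.35. Region chr18:11442401-11442700, at 182215 bp, had 6.43, 5.71, 2.62 and 4.96. Region chr8:30823501-30823900, at 180008 bp, had 7.62, 4.17, 9.47 and 4.06. Both regions on chromosome 18 had Rbbp8, a DNA end resection factor, as their nearest protein-coding gene, and their genotypes did not overlap in opposite directions.

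The nearest protein-coding gene is a matter of position and need not be the gene a region acts on. Among 31 intestinal transcription factors, 10 were nearest to 18 members (1.93% of the members, against 1.24% of distal regions inside genes). Region chr4:55514901-55515200, 16570 bp from Klf4, a factor of differentiated epithelium, had 3.79, 4.44, 14.1 and 10.4. Foxa1, a forkhead pioneer factor, had a pair of members, chr12:57538401-57540000 with 3.92, 3.65, 21.3 and 3.08 and chr12:57536901-57537300 with 1.50, 1.41, 15.1 and 5.15. Region chr2:180343301-180344400 near Gata5, an intestinal zinc finger factor, had 6.31, 3.67, 15.99 and 5.23. Region chr8:115524701-115525500, 181596 bp from Maf, had 6.74, 3.70, 6.29 and 5.25. Region chr2:163575401-163575700, 25318 bp from Hnf4a, the nuclear receptor that maintains enterocyte identity, had 7.85, 5.95, 3.98 and 2.65. Both ApcMin/+ libraries were higher in 4 of the 18 and lower in 1, the one near Hnf4a, against 34.7% and 1.02% of all regions.

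Of 38 enterocyte genes, 12 were nearest to 19 members, none of them CpG-rich. Krt20, a keratin of differentiated enterocytes, had 3, of which chr11:99461501-99461900 had 10.5, 6.04, 24.1 and 5.14 and chr11:99458901-99459400 had 8.34, 4.36, 10.2 and 4.89. Epcam, an epithelial adhesion molecule, had 4, the strongest of which was chr17:87602101-87604500 with 5.93, 3.30, 19.6 and 4.41. Region chr15:101984101-101984400, 20082 bp from the keratin gene Krt8, had 8.93, 1.49, 12.6 and 5.89. Region chr14:121437001-121437300, 55169 bp from the peptide transporter gene Slc15a1, had 13.9, 3.66, 5.30 and 2.02. Both ApcMin/+ libraries were higher in 4 of the 19 and lower in 0, beside the same shares of 34.7% and 1.02% of all regions.

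Of 25 crypt and Wnt target genes, 4 were nearest to 6 members (0.642% of the members, against 0.138% of distal regions inside genes). Axin2, a feedback inhibitor of Wnt signalling, had chr11:108910601-108911200 (6.53, 2.89, 11.5 and 3.11) and chr11:108906801-108907100 (11.8, 0.351, 4.56 and 0.798). Ephb3, a receptor that positions crypt cells, had chr16:21248601-21249400 (2.59, 4.20, 14.3 and 3.89) and chr16:21310801-21311100 (3.27, 2.44, 6.62 and 3.59). The members of the stem cell surface genes Cd44 (chr2:102941001-102941600) and Prom1 (chr5:44113201-44113500) had 1.79, 4.06, 6.98 and 1.16, and 3.47, 2.33, 2.81 and 6.97. Most of these values rest on fewer than 20 fragments, and both ApcMin/+ libraries were higher in 1 of the 6, the second region of Ephb3 (34.7% of all regions). RefSeq places a 5′ end of Gm46298 within the first region of Axin2 and a 5′ end of Gm34483 within that of Cd44.

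Immediate early genes, which respond within minutes to growth signals and handling, had 13 members for 6 of 21 genes, of which 6 were CpG-rich. Fos, a subunit of AP-1, had 5, including chr12:85485501-85487900 with 5.81, 1.81, 18.7 and 3.45 and chr12:85455001-85455800 with 5.97, 3.53, 12.5 and 3.96. Btg2, an antiproliferative gene, had 4, including chr1:134086001-134087600 with 5.93, 2.49, 15.9 and 5.20 and chr1:134060701-134061400 with 4.39, 3.96, 13.5 and 7.10. RefSeq places a 5′ end of Gm19497 within the latter region. Region chr8:84656501-84657100 near Ier2 had 10.3, 3.69, 22.4 and 6.61. Region chr15:101246101-101246800 near the nuclear receptor gene Nr4a1 had 12.96, 3.46, 18.6 and 5.06. Both ApcMin/+ libraries were higher in 3 of the 13 and lower in 0, again beside 34.7% and 1.02% of all regions. None of the members of the 4 lists passed the test given next.

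The genotypes were compared over the whole table of 14071 regions with limma on log2(signal + 1), with Benjamini-Hochberg adjustment. No region of the table, and none of the 934 members, reached an adjusted p below 0.05 (0% of all regions), and the smallest adjusted p was 0.741. At an unadjusted p below 0.05 there were 30 members (3.21%), 28 higher and 2 lower in ApcMin/+, against 262 of all regions (1.86%). The log2 difference of the members, ApcMin/+ minus wild type, had a median of 0.64 (quartiles 0.20 and 1.06) and was above 0 in 761 (81.5%), against a median of 0.87 over all regions and 0.90 at transcript 5′ ends. It was 0.84 in the CpG-rich members, 0.61 in the others and 1.14 in those beside tRNA genes. Without ApcMin/+ replicate 2, so that a lone ApcMin/+ library was assumed to vary like the others, 231 members (24.7%, against 29.4% of all regions) passed, and without ApcMin/+ replicate 1 none passed and the median was 0.13. Between libraries of 1 genotype the median on the same scale was 1.03 for ApcMin/+ replicate 1 against 2, which is more than the genotype difference, and 0.43 for wild-type replicate 1 against 2, which is less.

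The mean signal over the members was 5.33, 3.44, 10.8 and 4.57, or by genotype 4.39 ± 1.34 against 7.685 ± 4.40 (SD, n = 2 each, two-sided exact permutation p = 0.667). The difference of 3.30 became 0.184 without ApcMin/+ replicate 1, and it was -0.835 over the 11604 regions that a threshold of 5 times the genome-wide mean gave. With each library measured over regions called from the other 3 libraries, so that it took no part in their choice, the values were 7.0, 3.49, 8.83 and 4.71 and the difference 1.52. The share of signal in the members was 0.277% ± 0.0793 against 0.558% ± 0.378 (n = 2 each, exact permutation p = 0.667), and its difference of 0.281 percentage points became 0.12 over regions called from the other 3 libraries. With 2 libraries against 2 the smallest p is 0.333. The methods name 2 mice per genotype and the labels only number the libraries, so the spread between mice and that between libraries cannot be told apart.

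The members were also set against the regions at transcript 5′ ends of the same library. The mean signal over the members was 0.774, 0.794, 0.554 and 0.759 times that over regions at 5′ ends. On the log2 scale this was -0.35 ± 0.026 against -0.62 ± 0.32 (SD, n = 2 each, exact permutation p = 0.333, the smallest possible). The groups did not overlap, but the difference of -0.27 was -0.046 without ApcMin/+ replicate 1. It was -0.049 at 20 times the genome-wide mean and -0.15 with an average weighted by tags, where the groups overlapped (exact permutation p = 0.667 for both), -1.25 at 5 times the mean, and -0.53 over regions called from the other 3 libraries (p = 0.333 for both). In the CpG-rich members it was -0.13 (exact permutation p = 1) and in the others -0.31 (p = 0.333).

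Counted region by region, both ApcMin/+ libraries were higher than both wild-type libraries in 303 members (32.4%, against 34.7% of all regions) and lower in 29 (3.10%, against 1.02%). The share of members that were higher was near the background. When each library was centred on its median region, which shifts the median difference of all regions from 0.87 to 0.01 on the log2 scale, 94 members (10.1%, against 15.5% of all regions) were higher and 209 (22.4%, against 14.9%) were lower, and the median of the members was -0.21. The direction of the members therefore depends on the scale: above wild type in deposited units, and below it relative to the median region. It also leans on 1 library, as the median of the members in deposited units fell from 0.64 to 0.13 without ApcMin/+ replicate 1. The centred difference was not computed without that library.

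**Figure D4:**
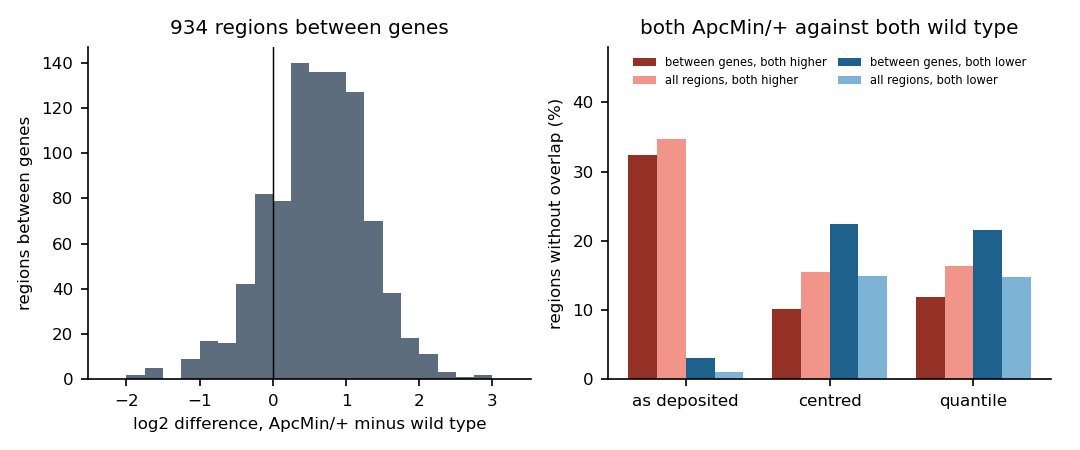
Left, number of distal intergenic regions by log2 difference (ApcMin/+ minus wild type) of log2(signal + 1), with a line at 0 and a median of 0.64. Right, percent of the 934 members and of all regions where both ApcMin/+ libraries were above or below both wild-type libraries, in deposited units (32.4% and 3.10% of members), after centring (10.1% and 22.4%) and after quantile normalization (11.9% and 21.5%).

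As none passed the threshold, the members with the largest differences among non-overlapping groups are given with their unadjusted standing. In the direction of ApcMin/+, chr2:30942601-30942900, 10059 bp from Tor1b, an endoplasmic reticulum ATPase, had 0, 2.39, 22.0 and 5.75, a log2 difference of 2.76 ± 0.88 (SE). Region chr10:95107101-95110300, 3200 bp long and 162266 bp from Plxnc1, a semaphorin receptor, had 0.436, 0.501, 32.8 and 1.902 (2.75 ± 0.96). Region chr8:126587901-126588200, 5786 bp from the corepressor gene Irf2bp2, had 0, 2.78, 18.2 and 5.38, region chr8:22607101-22607500 near the mitochondrial channel gene Vdac3 had 0, 1.25, 21.7 and 2.04, and region chr13:72639401-72640000 near the homeobox gene Irx2 had 0.593, 1.05, 9.02 and 7.86. Near Irx2 both ApcMin/+ libraries were alike, whereas in the other 4 ApcMin/+ replicate 1 was 3.37 to 17.2 times ApcMin/+ replicate 2. The smallest adjusted p of limma in these 5 was 0.741. Wild-type replicate 1 held 0 to 1.995 fragments in them and wild-type replicate 2 held 2.394 to 7.672.

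In the direction of wild type, wild-type replicate 1 was the highest library in each of the 5 members. Region chr1:118613801-118614100, 9074 bp from Clasp1, a microtubule-binding protein, had 12.7, 3.47, 0.145 and 2.57 (log2 difference -1.95 ± 0.94, SE). Regions chr4:3089801-3090200 (11.9, 3.32, 0.634 and 1.50) and chr4:3083501-3083800 (11.7, 3.01, 0.392 and 2.30) had the vomeronasal receptor gene Vmn1r2, 77120 and 83520 bp away, as their nearest protein-coding gene, and 84.5% and 46.0% of their bases were soft-masked. Region chr19:6899901-6900300, 8001 bp from Prdx5, a peroxiredoxin, had 7.99, 2.47, 0.334 and 1.15, and region chr11:68420101-68420800, 11321 bp from Pik3r5, had 7.01, 0.386, 0 and 0.357. In these 5 wild-type replicate 1 held 4.57 to 7.02 fragments and ApcMin/+ replicate 1 under 1.

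**Figure D5:**
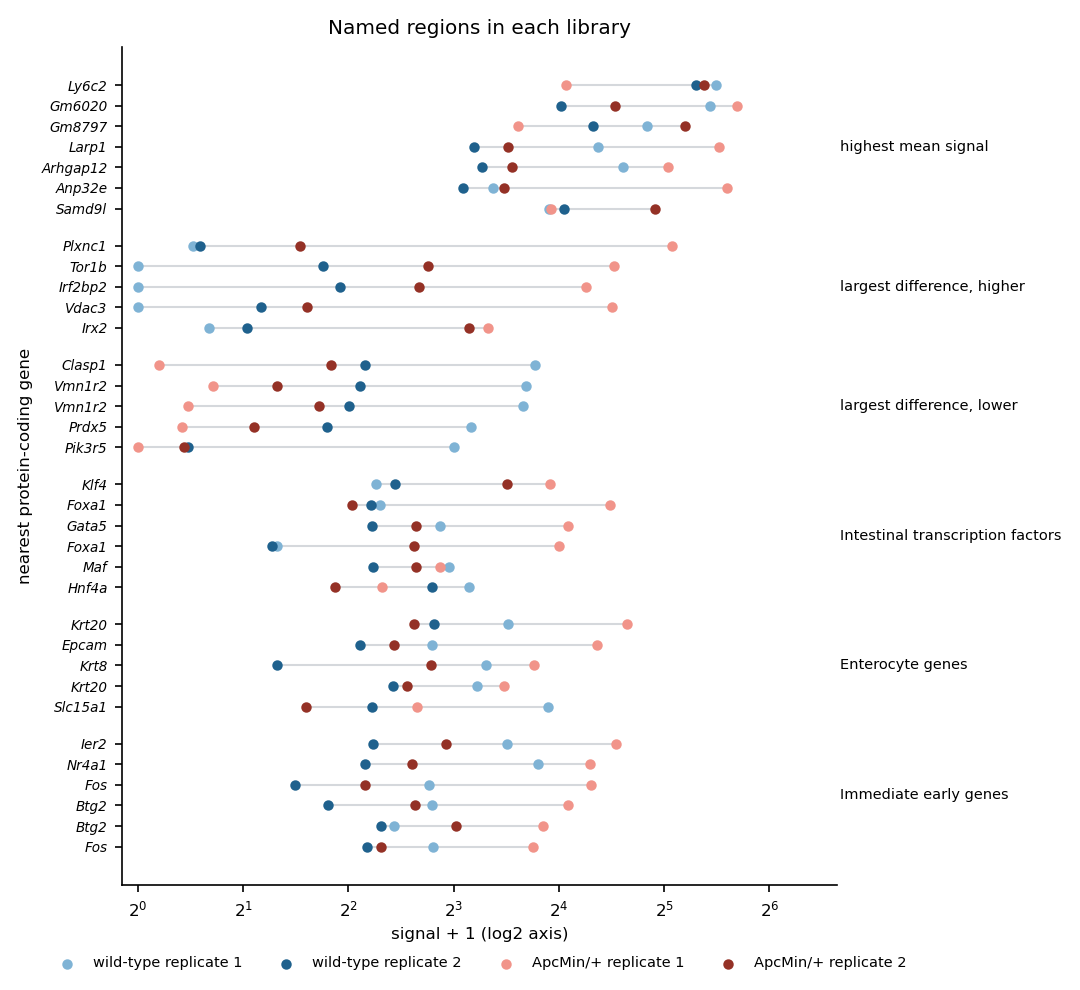
Signal plus 1 (log2 axis) in the 4 libraries for members named by their mean signal, their difference between genotypes or their nearest protein-coding gene, 1 row per member, with a grey line from the lowest to the highest library. ApcMin/+ replicate 1 is the highest library in most rows, and the rows of Ly6c2, Gm8797, Hnf4a and Slc15a1 are among the exceptions.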

How the data were processed

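The data are 4 H3K4me3 CUT&RUN libraries of villus cells, 2 wild-type and 2 ApcMin/+. The authors trimmed the reads, aligned them to mm10 with Bowtie2, removed duplicates with Picard, kept fragments of nucleosome length and wrote coverage with HOMER; the signal in the deposited tracks is that coverage, scaled to 10000000 tags, with no control subtracted and libraries kept apart. Short reads and the mapping filter can leave repeats under-counted, which was not tested.

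From the deposited signal, bins of 100 bp were averaged and regions built as described, and each was classed by GENCODE M21 on the 21 chromosomes of mm10. Each region's mean signal was tested with limma 3.58.1 (R 4.3.3, trend) as log2(signal + 1) over all 14071 regions, adjusted after Benjamini and Hochberg, at a threshold of 0.05. Mean values per library were compared by two-sided exact permutation. The fragments behind a value were its signal times the length of the region, divided by the total signal per tag of the library. These counts cover counting error only. Sequence and tRNA genes came from RefSeq's mm10 assembly. The limma step was tested on simulated data with a smaller spread than these libraries. That test does not show how large a change could be found here.

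Named regions were the 8 with the highest mean, the 4 longest, the 5 with the largest difference each way among non-overlapping groups, the 3 farthest from a 5′ end and up to 6 for each of 4 gene lists, with 4 beside tRNA genes added after their values were seen; 2 of those that the rule names are not reported here. The members and lists were chosen with earlier results of these data known. Alternatives were other thresholds, distances, pseudocounts, scalings, a signal filter, a replicate block and leaving out each library. Other marks and ages of the series were not used here.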

Additional observations from a re-analysis of the deposited data

How the results depend on the processing

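At a threshold of 5 times the genome-wide mean, 11604 distal intergenic regions were found, against 934 at 10 times and 248 at 20 times, and 600 lay over 10000 bp from a transcript 5′ end. At 5 times, the difference of the mean signal (ApcMin/+ minus wild type) turned to -0.835 and that of the share of signal to -0.253 percentage points; the cause was not tested. At 20 times, 29.0% of the regions were CpG-rich, against 15.0%. Members with both ApcMin/+ libraries higher or lower numbered 303 and 29, and 94 and 209 after centring, 111 and 201 after quantile normalization, 1062 and 2797 at 5 times, and 176 and 12 at a mean signal of at least 5. Leaving out 1 library gave 0 to 231 members past the limma threshold, the 231 without ApcMin/+ replicate 2; differences of the mean signal ran from 0.184 to 6.41, of the log2 ratio to 5′ ends from -0.50 to -0.046, and of the share from 0.0144 to 0.548 percentage points.

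Across regions, the deviations of same-numbered libraries from their genotype means had r = -0.06 over all regions and -0.205 over the members. This r leaves out a shift in level shared by all regions. Replicate 1 was the higher library in both genotypes, with a median log2 ratio over replicate 2 of 0.52 in wild type and 1.47 in ApcMin/+ over all regions. Whether the numbers share an effect was not tested. No label pairs mice, so no pairing was used. With the replicate number as a replicate block 0 members passed limma's adjusted threshold (52 at an unadjusted p under 0.05), and with crossed numbers, added after the data were seen, 0 (19). Pseudocounts of 0.1 and 5 also gave 0 (25 and 35 unadjusted). Leaving out members beside tRNA genes, or using CpG-rich members or the others alone, added after the data were seen, kept the direction of the mean signal and of the ratio.

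Of the 51 named regions, 16 turned negative in log2 difference after centring, by nearest protein-coding gene: -0.71 (Cd44), -0.04 (Gata5), -0.34 (Prom1), -0.41 (Samd9l), -0.73 (Dusp26), -0.69 (Maf), -0.12 (Larp1), -0.65 (Krt20 at 99458901), -0.38 (Krt20 at 99461501), -0.45 (Axin2 at 108910601), -0.31 (Fos), -0.38 (Nr4a1), -0.23 (Ephb3), -0.02 (Enpp4), -0.49 (Arhgap12) and -0.46 (Gm6020). After quantile normalization 14 did: -0.97 (Cd44), -0.03 (Gata5), -0.43 (Samd9l), -0.67 (Dusp26), -0.50 (Maf), -0.57 (Krt20 at 99458901), -0.44 (Krt20 at 99461501), -0.43 (Axin2 at 108910601), -0.05 (Psma3), -0.30 (Fos), -0.33 (Nr4a1), -0.08 (Ephb3), -0.41 (Arhgap12) and -0.14 (Gm6020). Where leaving out 1 library changed the sign, the differences ran from -0.80 to 1.09 (Cd44), -0.02 to 1.99 (Shf), -0.97 to 0.62 (Gm8797), -0.17 to 2.48 (Hfe2), -0.02 to 1.05 (Prom1), -0.05 to 0.94 (Samd9l), -0.40 to 0.65 (Dusp26), -0.20 to 0.52 (Maf), -0.27 to 1.74 (Larp1), -0.26 to 0.66 (Krt20 at 99458901), -0.55 to 1.48 (Krt20 at 99461501), -2.01 to 1.23 (Axin2 at 108906801), -0.40 to 1.21 (Axin2 at 108910601), -0.23 to 2.22 (Foxa1), -0.26 to 2.09 (Psma3), -0.18 to 1.26 (Fos), -0.38 to 1.32 (Nr4a1), -0.04 to 1.96 (Krt8), -0.01 to 1.92 (Epcam), -0.38 to 1.10 (Arhgap12) and -0.33 to 1.10 (Gm6020). No cause was tested. Depth limits single values most in wild-type replicate 1, where 411 members had under 3 fragments.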

Other observations

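Members gathered near some genes. Of 743 protein-coding genes nearest to a member, Irf2bp2, a transcriptional corepressor gene, had the most, with 9 members over 170000 bp of chromosome 8 and median signals of 4.67, 2.72, 6.71 and 4.84 (wild-type replicate 1, wild-type replicate 2, ApcMin/+ replicate 1 and ApcMin/+ replicate 2, as in what follows). Cbx8, a Polycomb protein gene, had 5 within 11500 bp of chromosome 11, with 3.28, 3.64, 14.0 and 4.39. Actb, the gene of cytoplasmic beta-actin, had 4 within 8900 bp of chromosome 5, with 4.09, 3.21, 12.9 and 5.21. In all of these ApcMin/+ replicate 1 had the highest median.

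Chromosome 11 held the most members, 93 (0.762 per Mb), and 7.55% of its 1232 regions of all kinds were distal intergenic. That share was larger on chromosomes 12 to 16, on chromosome 18 (9.92% of 383 regions) and on chromosome Y (1 of 5 regions). Chromosome X held 12 (0.0702 per Mb), or 3.97% of its 302 regions.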
